A study of Mus musculus with 8 samples.

Results

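The respiratory chain of mitochondria is built from proteins of both genomes of the cell, and the genes described here are those nuclear genes whose symbols follow the names of its subunits. Members were taken by name from the table of 24421 genes, as Nduf genes of the series a, b, c, s and v with a number (complex I, NADH dehydrogenase), Sdha to Sdhd (complex II, succinate dehydrogenase), symbols starting with Uqcr (complex III, the cytochrome bc1 complex), symbols starting with Cox4 to Cox8 (complex IV, cytochrome c oxidase) and symbols starting with Atp5 and a letter (complex V, ATP synthase). The rule found 83 genes, with 36 in complex I, 4 in complex II, 8 in complex III, 18 in complex IV and 17 in complex V, and it used no measured value. Messenger RNA was sequenced from 4 groups of mouse embryonic stem cells (mESCs), each with 2 libraries from separate biological samples. They were Hira-null cells differentiated to day 15, WT cells differentiated to day 15, undifferentiated Hira-null cells at day 0 and undifferentiated WT cells at day 0. The Hira-null cells are a single clone (Clone 104), WT is the W9.5 line, and in both the histone variant H3.3 carries an HA tag. With a single line per genotype, loss of Hira and other differences between the lines cannot be told apart. Differentiation used hanging drops and then plated embryoid bodies, so that a day 15 culture is a mixture of cells, and in such bulk samples fewer cells of a type and less RNA per cell cannot be told apart.

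Complexes I and II pass electrons from NADH and succinate to ubiquinone, complex III passes them on to cytochrome c, and complex IV hands them to oxygen. The protons pumped on the way drive complex V, which makes ATP. Undifferentiated mouse stem cells use this chain together with a high rate of glycolysis, and heart muscle is known for its dense mitochondria. Several small subunits of complex IV exist in more than one form, with one made in most tissues and others known from heart and skeletal muscle, lung or testis.

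Values are FPKM, the fragments of a gene scaled by its length and by the library, so that levels of different genes can be set side by side. The values of each library fitted whole fragments, which came to between 6914225 and 11106636 per library. Groups were compared by limma on log2(FPKM + 1). The 14337 genes that reached FPKM 1 in 2 or more libraries were fitted together, and a gene was called at a Benjamini-Hochberg adjusted p of 0.05 or less over all of these genes. On this scale the fold change of a weakly expressed gene comes out too small. Of the 83 members, 81 passed this filter. Hira itself, which encodes the histone chaperone that the Hira-null cells lack, was at 12.4 and 11.4 FPKM in Hira-null cells at day 0, against 27.3 and 28.5 FPKM in WT cells at day 0. At day 15 it was at 16.7 and 19.8 FPKM in the libraries labelled Hira-null, against 15.8 and 15.5 FPKM in WT, and did not pass the test (adjusted p = 0.167). A value over all exons does not show the deleted stretch, and every direction given below for day 15 between the genotypes rests on these labels.

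Most members were strongly expressed in all 8 libraries. The median of their mean levels was 87.0 FPKM, against 9.60 FPKM over all tested genes, and 65 of the 81 tested members had a mean above 50 FPKM. Atp5b, the catalytic beta subunit of ATP synthase, was the highest of all with a mean of 859 FPKM. The highest members of the other complexes were Cox4i1 in complex IV (495 FPKM), Ndufa4 in complex I by its name (215 FPKM), Uqcr10 in complex III (214 FPKM) and Sdhc in complex II (96.4 FPKM). Ndufa4 is now counted as a subunit of complex IV, and it was kept here where its name puts it. The lowest were Cox8b, the muscle form of a small complex IV subunit, with 1 fragment in each WT library of day 15 and 0 in the 6 others, and Ndufs5 of complex I, with 1 fragment over all 8 libraries, and neither was tested. Ndufs5 has a copy elsewhere in the genome at 99.6% identity. In all, 12 members have at least 1 copy at 95% identity or more over 80% of their transcript, among them Atp5l with 10 and Atp5g2 with 3, and their values are uncertain where reads could be shared. The lowest members of the other complexes were Sdhd (62.8 FPKM), Uqcrfs1, the Rieske iron-sulphur protein (76.9 FPKM), and Atp5s (3.57 FPKM). Atp5s and Atp5sl match the name rule although neither is a subunit of the ATP synthase, and Cox7a2l is known for joining complexes into supercomplexes.

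The members made up 0.666% to 0.7004% of all fragments at day 15 and 1.10% to 1.29% at day 0. Their summed level was 7256 and 6871 FPKM in the libraries labelled Hira-null at day 15, 7016 and 6828 FPKM in WT at day 15, 13232 and 13255 FPKM in Hira-null at day 0 and 12496 and 11779 FPKM in WT at day 0. Each day 15 library was thus well below each day 0 library, and at day 0 both Hira-null libraries were above both WT libraries. The 5 complexes shared the drop. Complex V had 2271 and 2141 FPKM in the libraries labelled Hira-null at day 15, against 4446 and 4407 FPKM in Hira-null at day 0, and 2209 and 2148 FPKM in WT at day 15, against 4178 and 3942 FPKM in WT at day 0. The ratio of the means of day 15 over day 0 lay between 0.498 and 0.589 for the 5 complexes in Hira-null and between 0.528 and 0.655 in WT. At day 0 the ratio of Hira-null over WT was 1.18 for complex IV, 1.11 for complex II and 1.09 for complexes I and V, and it was 0.929 for complex III, where it was 0.997 without Uqcr10. At day 15 it was between 0.989 and 1.03 for all 5.

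**Figure D1:**
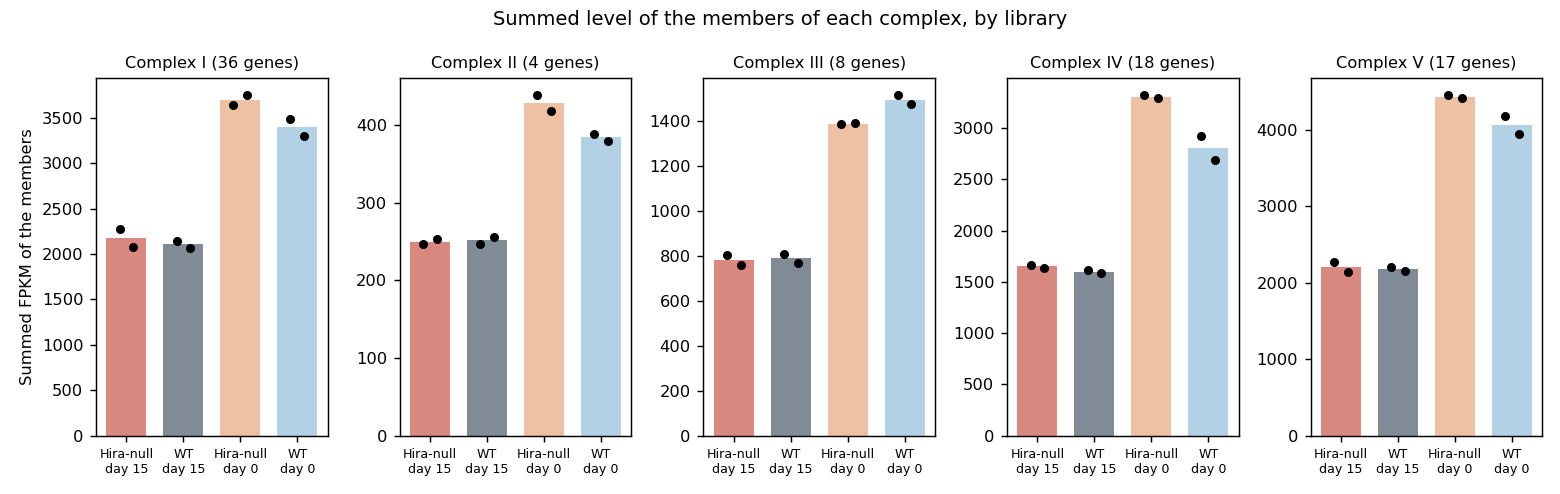
Summed FPKM of the members of each complex (vertical axis, from 0) in the 4 groups; bars are group means and points are the 2 libraries of a group. In each complex the 4 day 15 libraries lie below the 4 day 0 libraries, and complex IV at day 0 shows both Hira-null libraries (3318 and 3293 FPKM) above both WT libraries (2924 and 2687 FPKM).

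Between day 15 and day 0, nearly all members fell in both genotypes. In Hira-null, 76 of 81 were lower at day 15 and 1 was higher, against a background over all tested genes of 36.4% lower and 37.5% higher. In WT, 71 were lower and 2 higher, against 33.4% lower and 36.1% higher over all genes. The median log2 fold change of the members was −0.87 in Hira-null and −0.78 in WT, where the median over all tested genes was 0.01 in Hira-null and 0.03 in WT. In 68 members the fall passed the test in both genotypes, as it did in 3798 of the 14337 tested genes. The genotypes share no library in these comparisons, but all 8 libraries were fitted together with 1 estimate of the spread per gene. All 4 day 15 libraries were below all 4 day 0 libraries in 66 of the 81, a pattern found in 27.9% of the tested genes, and in 0 members were they all above. Without any 1 library, 72 of the 76 calls in Hira-null and 62 of the 71 in WT held.

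The fall was seen in most of the nuclear subunits chosen as core members of each complex. Subunits encoded in mitochondrial DNA were not analysed. Atp5b had 482 and 484 FPKM in the libraries labelled Hira-null at day 15, against 1313 and 1304 FPKM in Hira-null at day 0, and 519 and 499 FPKM in WT at day 15, against 1188 and 1081 FPKM in WT at day 0. Its log2 fold change was −1.44 in Hira-null and −1.15 in WT. Atp5a1, the alpha subunit beside it, fell by 1.10 in Hira-null and by 0.97 in WT on the log2 scale. In complex IV, Cox5a, which helps to hold the nuclear subunits on the catalytic core, had 121 and 122 FPKM in WT at day 15, against 332 and 278 FPKM in WT at day 0, and was among the 3 members that fell most in WT (log2 fold change −1.32, SE 0.10, adjusted p = 4.46e-06). In complex III, Uqcrc1, a core protein, fell by 1.17 in Hira-null and 1.19 in WT, and Uqcrfs1 by 0.41 in Hira-null and 0.81 in WT. In complex I, Ndufs7, which carries the last iron-sulphur cluster before ubiquinone, fell by 1.31 in Hira-null and 0.78 in WT, and Ndufv1, which binds NADH, by 1.03 in Hira-null and 0.67 in WT. Sdha, the flavoprotein of complex II, fell by 0.54 in Hira-null and 0.59 in WT. Ndufs1 of complex I fell in WT (log2 fold change −0.56), while in Hira-null its value was −0.06 and did not pass the test. Sdhb fell by 0.60 in Hira-null and by 0.29 in WT, where the call was lost under median-ratio scaling (−0.19, adjusted p = 0.133) and without WT day 0 replicate 1 or either WT day 15 library (adjusted p = 0.0699 to 0.192).

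Few members went against this direction. Uqcrh, the hinge protein of complex III, had 159 and 154 FPKM in WT at day 15, against 134 and 115 FPKM in WT at day 0, so both day 15 libraries were above both day 0 libraries (log2 fold change 0.33, SE 0.08, adjusted p = 0.00593). The call was lost without WT day 15 replicate 1 (adjusted p = 0.0559), and Uqcrh has a copy at 95.3% identity. In Hira-null it was at 146 and 157 FPKM at day 15, against 148 and 141 FPKM at day 0, and did not pass the test. Ndufa5, an accessory subunit of complex I, was the one member that rose in Hira-null, with 47.4 and 51.7 FPKM at day 15, against 35.8 and 42.1 FPKM at day 0 (log2 fold change 0.34, SE 0.10, adjusted p = 0.0130). That call was lost without Hira-null day 0 replicate 1 (adjusted p = 0.114) or day 15 replicate 2 (adjusted p = 0.0658). In WT it fell, with 45.6 and 41.8 FPKM at day 15, against 67.1 and 60.4 FPKM at day 0 (log2 fold change −0.53).

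A fall at day 15 was common among strongly expressed genes. Of the 573 other genes with a mean above 100 FPKM, 74.9% were called lower in Hira-null and 80.8% in WT, with a median log2 fold change of −0.91 in Hira-null and −0.85 in WT. The 33 members in that range had medians of −0.89 in Hira-null and −0.88 in WT. Between 50 and 100 FPKM the 32 members had medians of −0.73 in Hira-null and −0.71 in WT, and the 796 other genes had −0.48 in Hira-null and −0.61 in WT. Between 10 and 50 FPKM the 11 members had −0.93 in Hira-null and −0.56 in WT, against −0.07 in Hira-null and −0.12 in WT for the 5567 other genes. Short transcripts fell too. Transcripts of up to 1772 bases belong to 72 of the 81 tested members, whose medians were −0.86 in Hira-null and −0.75 in WT. The 3516 other genes of that length had a median of −0.49 in Hira-null and −0.37 in WT. The part of level and length in the members' fall was not tested.

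**Figure D2:**
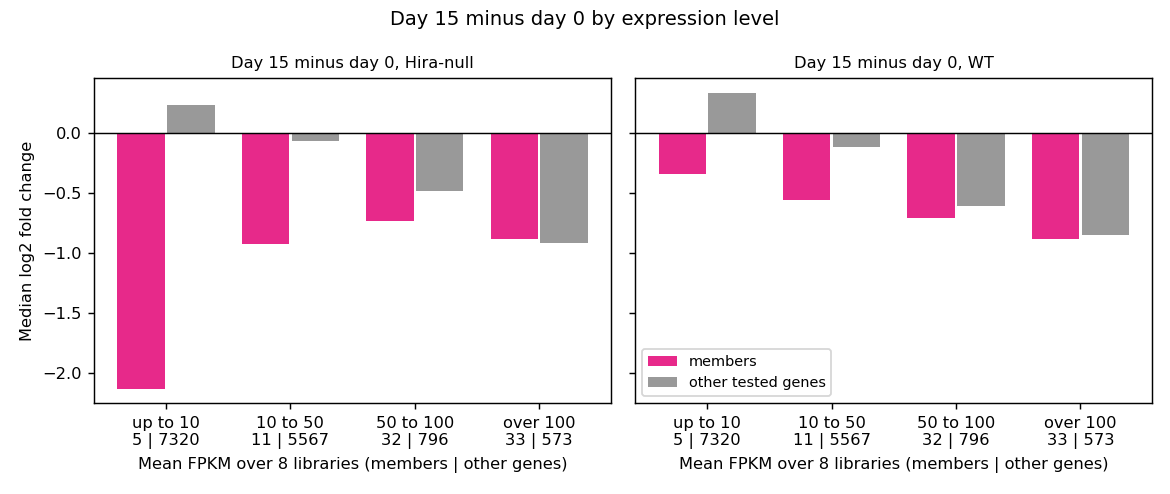
Median log2 fold change of day 15 over day 0 (vertical axis, log2(FPKM + 1) scale) in 4 ranges of mean FPKM, for members and for all other tested genes, with the number of each under the bars. In both genotypes the 2 medians lie close together above 100 FPKM (−0.89 and −0.91 in Hira-null, −0.88 and −0.85 in WT), and in the lower ranges the members lie below the other genes.

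At day 0, members were more often higher than lower in Hira-null cells. Of 81, 25 were higher and 10 lower in Hira-null than in WT, against 20.8% higher and 19.4% lower over all tested genes, and 46 did not pass the test. The median log2 fold change was 0.16, against 0.01 over all tested genes, and it was 0.11 without WT replicate 2 and 0.23 without WT replicate 1. Among genes of like level the shares were different. Of the 33 members above 100 FPKM, 12 were higher and 5 lower, against 30.5% higher and 36.0% lower of the 573 other genes. Of the 32 members between 50 and 100 FPKM, 6 were higher and 3 lower, against 21.0% higher and 37.4% lower of the 796 other genes. Complex IV stood out by its counts, with 10 of 17 higher, 1 lower and a median of 0.35. Complex V had 6 of 17 higher and 2 lower, complex I had 7 of 35 higher and 4 lower, complex II had 1 of 4 higher, and complex III had 1 of 8 higher and 3 lower. Under the stricter rule that also asks for a fold of 2 or more, 4 members were higher and 0 lower. Without any 1 library, 10 of the 25 higher and 4 of the 10 lower calls held, and the number higher was 16 without Hira-null replicate 1 and 12 without Hira-null replicate 2. The number lower was 5 without either of these and 6 without WT replicate 1.

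The genes with the largest differences at day 0 were second forms of complex IV subunits. Cox6b2, known as the testis form of subunit VIb, had 104 and 98.9 FPKM in Hira-null cells, against 27.3 and 24.0 FPKM in WT cells at day 0. Both Hira-null libraries were well above both WT libraries (log2 fold change 1.94, SE 0.11, adjusted p = 1.31e-05). Cox7b2, also known from testis, had 6.97 and 2.93 FPKM in Hira-null, from 26 and 14 fragments, against 0.5004 and 0.872 FPKM in WT, from 2 and 4 fragments. The groups did not overlap (log2 fold change 1.74, SE 0.33, adjusted p = 0.00331), and the adjusted p was 0.0506 when only the day 0 libraries were fitted. Cox6a2, a heart and muscle form, had 1.99 and 2.76 FPKM in Hira-null, from 9 and 16 fragments, against 1.03 and 0 FPKM in WT, from 5 and 0 fragments (log2 fold change 1.23, SE 0.31, adjusted p = 0.0119). Its call was lost without Hira-null replicate 2 (adjusted p = 0.0804) and with only the day 0 libraries (adjusted p = 0.0998). Cox7a1, another heart and muscle form, had 41.8 and 38.9 FPKM in Hira-null, against 17.4 and 17.5 FPKM in WT. It was higher in both Hira-null libraries (log2 fold change 1.16), and the call held without each library in turn. Cox4i2, known from lung, had 4.41 and 7.04 FPKM in Hira-null, against 5.42 and 4.40 FPKM in WT, and Cox8c, known from testis, had 3.67 and 3.11 FPKM in Hira-null, against 4.28 and 2.24 FPKM in WT, and in both genes the groups overlapped. Of the 6 tested second forms, 4 were thus called higher and 2 were not called.

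The partners made in most tissues differed less. Cox6b1 had 306 and 297 FPKM in Hira-null, against 243 and 252 FPKM in WT at day 0. It was higher by 0.28 on the log2 scale (adjusted p = 0.00732), a call that was lost without Hira-null replicate 1 (adjusted p = 0.0740). Of the summed level of Cox6b1 and Cox6b2, the testis form Cox6b2 made up 25.3% and 24.99% in Hira-null, against 10.1% and 8.68% in WT at day 0. Cox7a1 made up 19.6% and 17.2% of the sum with Cox7a2 in Hira-null, against 8.98% and 10.8% in WT at day 0. Cox7a2 itself had 171 and 187 FPKM in Hira-null, against 177 and 145 FPKM in WT, which overlap. Cox6a1 was higher (log2 fold change 0.35, adjusted p = 0.0366) and so was Cox8a (0.44, adjusted p = 0.0103), but with only the day 0 libraries the adjusted p was 0.0719 for Cox6a1 and 0.05165 for Cox8a. Cox7b was at 0.07 and did not pass the test. Cox4i1 was the one complex IV member that was lower, with 576 and 595 FPKM in Hira-null, against 730.2 and 658 FPKM in WT. Its log2 fold change was −0.24 (adjusted p = 0.0184), and this call too was lost with only the day 0 libraries (adjusted p = 0.0717). The calls for Cox6a1, Cox8a and Cox4i1 were also lost without either Hira-null replicate and without 1 of the WT replicates, which was replicate 1 for Cox6a1 and Cox4i1 and replicate 2 for Cox8a (adjusted p = 0.0555 to 0.185). Cox7a2l had 109 and 90.9 FPKM in Hira-null, against 63.0 and 53.7 FPKM in WT (log2 fold change 0.77), and held without each library in turn. Atp5sl, which is no subunit, had 16.9 and 14.7 FPKM in Hira-null, against 10.6 and 8.89 FPKM in WT (log2 fold change 0.65, adjusted p = 0.00445).

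**Figure D3:**
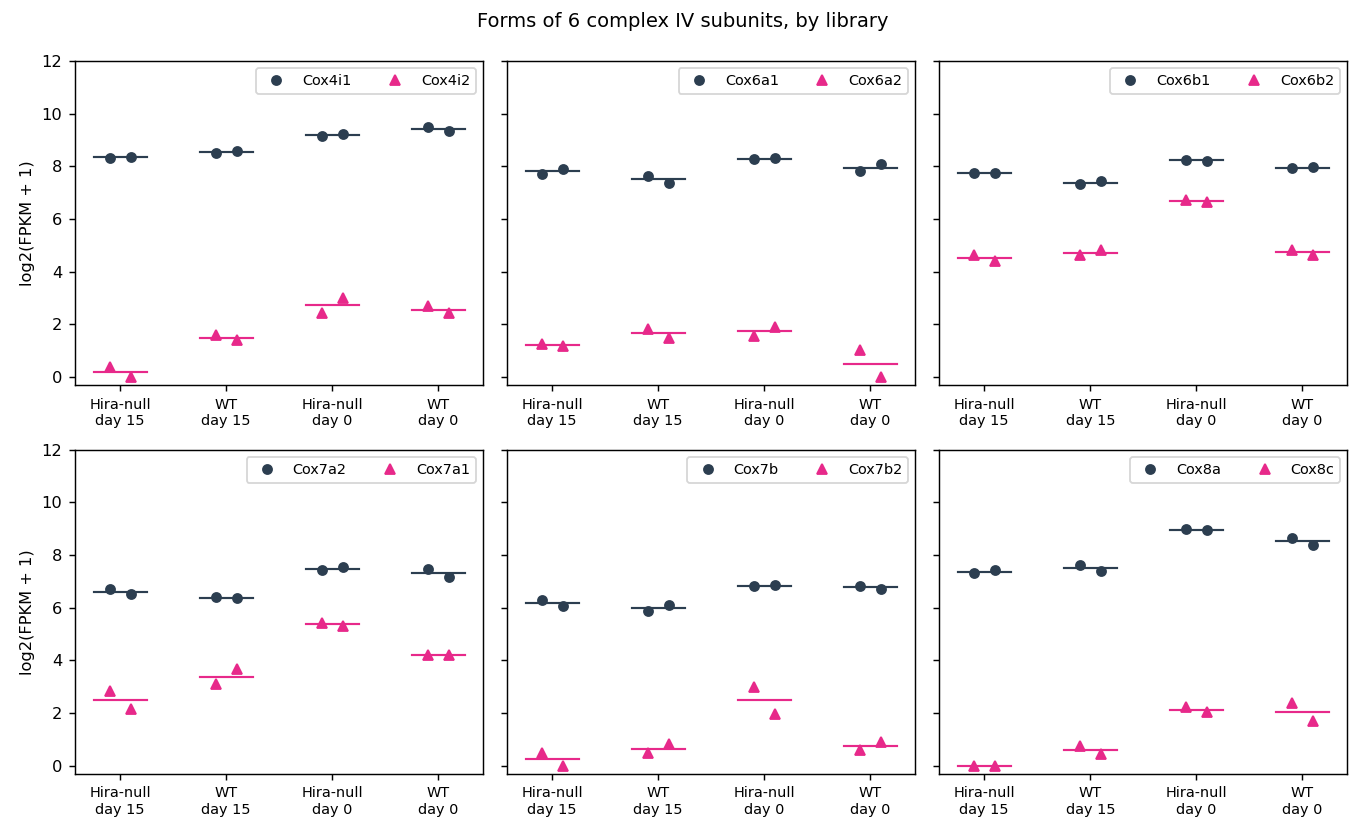
Level of 6 pairs of complex IV genes (vertical axis, log2(FPKM + 1)) in the 4 groups; circles are the form made in most tissues, triangles the second form, each point a library and each line a group mean. The triangles of Cox6b2 lie highest in Hira-null at day 0 (104 and 98.9 FPKM) and close to each other in the 3 other groups (20.1 to 27.5 FPKM).

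The promoters of these pairs are shown because forms of the same subunit moved apart in Hira-null cells at day 0. Each is 300 bases, from 250 before to 50 after the start of the gene in RefSeq, on the GRCm38.p6 build and 5′ to 3′ on the strand of the gene, and capitals mark matches to CCGGAAG, a site of ETS factors such as GABP, on either strand, so that CTTCCGG is a match on the other one. Cox6b2 lies at chr7:4753045-4753344 on the minus strand, Cox6b1 at chr7:30626065-30626364 on the minus strand, Cox7a1 at chr7:30183921-30184220 on the plus strand and Cox7a2 at chr9:79759804-79760103 on the minus strand.
Cox6b2: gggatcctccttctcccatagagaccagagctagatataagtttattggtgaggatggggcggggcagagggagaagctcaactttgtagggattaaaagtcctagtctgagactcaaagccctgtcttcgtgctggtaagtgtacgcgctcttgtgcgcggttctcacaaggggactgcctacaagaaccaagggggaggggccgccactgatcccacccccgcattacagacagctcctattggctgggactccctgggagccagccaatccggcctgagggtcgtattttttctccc
Cox6b1: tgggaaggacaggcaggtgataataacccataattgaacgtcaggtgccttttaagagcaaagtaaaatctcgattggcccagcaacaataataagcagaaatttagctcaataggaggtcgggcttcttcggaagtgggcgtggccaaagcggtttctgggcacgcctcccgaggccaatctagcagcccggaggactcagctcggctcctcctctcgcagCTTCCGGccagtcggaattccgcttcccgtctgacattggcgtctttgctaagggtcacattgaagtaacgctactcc
Cox7a1: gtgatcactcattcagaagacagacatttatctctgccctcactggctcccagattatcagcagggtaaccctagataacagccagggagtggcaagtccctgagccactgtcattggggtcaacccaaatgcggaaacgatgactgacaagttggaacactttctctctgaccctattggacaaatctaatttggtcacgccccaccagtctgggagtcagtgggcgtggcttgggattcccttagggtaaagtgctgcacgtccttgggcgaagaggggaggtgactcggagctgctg
Cox7a2: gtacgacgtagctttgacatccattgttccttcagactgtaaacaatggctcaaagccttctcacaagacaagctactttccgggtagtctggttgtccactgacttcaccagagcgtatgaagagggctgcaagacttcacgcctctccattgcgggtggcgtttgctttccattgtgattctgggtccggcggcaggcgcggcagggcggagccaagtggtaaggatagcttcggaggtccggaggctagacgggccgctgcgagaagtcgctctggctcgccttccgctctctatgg
Of the windows shown, those of Cox6b2 and Cox7a1 hold fewer CpG dinucleotides than those of their partners, with 10 in Cox6b2 and 7 in Cox7a1, against 17 in Cox6b1 and 20 in Cox7a2. The median was 19 over the 69 members with such a window and 8 over all 27025 genes with one. In the pair of Cox7b2 and Cox7b the order was the other way, with 10 in Cox7b2 and 5 in Cox7b. The windows of the other pairs are not described here. The ETS letters were found in 23.2% of the members' windows, among them Cox6b1, against 9.93% of all genes' windows. In Cox6b2, Cox7a1 and Cox7a2 these letters are not in the window.

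A second motif, the site of the factor NRF1 spelled as GCGCA, any base and then GCGC on either strand, was in the windows of 17 of the 69 members (24.6%), against 5.19% of all genes' windows. Its first 5 letters alone, GCGCA, which form 1 arm of the site, were found more often. This shorter motif was in 63.8% of the members' windows and 32.9% of all. The letters of both hold CpG dinucleotides, of which the members' windows have more (median 19 against 8 over all genes with a window). The part of CpG content in these shares was not tested. Ndufa5 and Ndufa6 each hold 1 match to the full site, given here in capitals, and are shown because they differed between the genotypes in opposite directions at day 0. Ndufa5 has a second window in RefSeq, which is not shown. Ndufa5 lies at chr6:24527477-24527776 and Ndufa6 at chr15:82354242-82354541, both on the minus strand of GRCm38.p6. Ndufa6 was chosen after its values were seen.
Ndufa5: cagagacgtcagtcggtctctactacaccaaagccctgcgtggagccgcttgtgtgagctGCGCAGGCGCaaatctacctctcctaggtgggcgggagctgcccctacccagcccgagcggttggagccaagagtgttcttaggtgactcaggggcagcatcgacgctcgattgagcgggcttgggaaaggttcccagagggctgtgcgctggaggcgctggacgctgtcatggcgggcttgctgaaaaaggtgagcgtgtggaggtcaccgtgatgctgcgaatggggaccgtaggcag
Ndufa6: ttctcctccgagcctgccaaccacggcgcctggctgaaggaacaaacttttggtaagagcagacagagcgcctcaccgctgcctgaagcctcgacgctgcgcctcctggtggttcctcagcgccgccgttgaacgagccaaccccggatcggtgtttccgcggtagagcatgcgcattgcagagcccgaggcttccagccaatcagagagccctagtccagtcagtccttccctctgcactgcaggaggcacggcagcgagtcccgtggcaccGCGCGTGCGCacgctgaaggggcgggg
Ndufa5 had 35.8 and 42.1 FPKM in Hira-null, against 67.1 and 60.4 FPKM in WT at day 0, with both Hira-null libraries lower (log2 fold change −0.70, SE 0.10, adjusted p = 8.21e-04). Ndufa6 had 163 and 165 FPKM in Hira-null, against 107 and 105 FPKM in WT at day 0, with both Hira-null libraries higher (log2 fold change 0.62). Both calls held without each library in turn. At day 15 the direction in Ndufa6 was the other way, with 78.6 and 70.7 FPKM in the libraries labelled Hira-null, against 101 and 93.6 FPKM in WT.

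Of the 10 members that were lower in Hira-null at day 0, 4 belong to complex I, 3 to complex III, 1 to complex IV and 2 to complex V. The share of tested members that were lower was 37.5% in complex III and 11.4% in complex I, against 19.4% over all tested genes. Uqcrq, a small subunit of complex III, had 202 and 212 FPKM in Hira-null, against 289 and 308 FPKM in WT (log2 fold change −0.53, SE 0.07, adjusted p = 5.87e-04). Ndufb10 of complex I had 84.8 and 87.1 FPKM in Hira-null, against 142 and 119.9 FPKM in WT (log2 fold change −0.59, SE 0.18, adjusted p = 0.0290). Its call was lost without Hira-null replicate 1 or 2 or WT replicate 1 (adjusted p = 0.112 to 0.134). Uqcrfs1 had 84.2 and 79.2 FPKM in Hira-null, against 108 and 102 FPKM in WT, and was lower (log2 fold change −0.36). Of the core members, Ndufs1 was lower as well (−0.35), and Ndufv1 (0.24), Atp5a1 (0.20) and Atp5b (0.21) were higher, but these 4 calls were lost without either Hira-null replicate (adjusted p = 0.109 to 0.167). Ndufs7 (0.26), Sdha (−0.08), Sdhb (0.22), Uqcrc1 (0.16) and Cox5a (0.16) did not pass the test.

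The 3 genes of the c subunit of ATP synthase, whose mature proteins are the same, went separate ways at day 0. Atp5g1 had 87.7 and 79.7 FPKM in Hira-null, against 119 and 122 FPKM in WT (log2 fold change −0.52). Atp5g2 had 76.3 and 65.96 FPKM in Hira-null, against 41.2 and 40.1 FPKM in WT (log2 fold change 0.79). Atp5g3, the most abundant, had 300.2 and 285 FPKM in Hira-null, against 364 and 356 FPKM in WT (log2 fold change −0.30, adjusted p = 0.0366). The calls for Atp5g1 and Atp5g2 held without each library in turn, and that for Atp5g3 was lost without any of the 4 day 0 libraries (adjusted p = 0.0773 to 0.196). The summed level of the 3 genes was made up by Atp5g2 to 16.4% and 15.3% in Hira-null, against 7.85% and 7.74% in WT at day 0. Atp5g2 has 3 near-identical copies, the closest at 100% identity.

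Other genes of mitochondria and of energy metabolism were read from lists, and the genes named from them were chosen after their values were seen. At day 0, to which the counts here belong unless day 15 is named, 20.8% of all tested genes were higher and 19.4% lower in Hira-null. Of 18 assembly factors of complex IV that were tested, 2 were higher and 11 lower in Hira-null, with a median log2 fold change of −0.38, where the complex IV members had 0.35. Sco1, which brings copper to the enzyme, had 9.49 and 8.35 FPKM in Hira-null, against 17.4 and 16.2 FPKM in WT (log2 fold change −0.85, adjusted p = 0.00129). Of 21 genes of mitochondrial import and cristae, 0 were higher and 14 lower, with a median of −0.30. Immt, which shapes the cristae that hold the chain, had 55.6 and 55.8 FPKM in Hira-null, against 126 and 127 FPKM in WT (log2 fold change −1.17, adjusted p = 2.52e-05). Of 19 genes of glycolysis, 16 were higher and 0 lower, with a median of 0.48. At day 15, 0 of these 19 were higher and 11 lower (median −0.29), against 18.6% higher and 18.8% lower over all tested genes. Some other lists were more even at day 0. Of 17 citric acid cycle genes, 4 were higher and 5 lower, and of 14 of fatty acid oxidation, 5 and 2. Of 13 complex I assembly factors, 2 were higher and 1 lower, and of 16 factors of mitochondrial DNA and biogenesis, 1 and 2. Among 13 electron carriers and subunits outside the name rule, 2 were higher and 4 lower. One of them, Ndufa4l2, the paralog of Ndufa4 known from cells short of oxygen, had 129 and 120.1 FPKM in Hira-null, against 19.7 and 26.6 FPKM in WT (log2 fold change 2.39, adjusted p = 1.29e-04). The 13 subunits encoded in mitochondrial DNA were not analysed here. Nrf1, the factor of the motif above, did not pass the test (log2 fold change −0.02), and Gabpa, the ETS subunit of GABP, was lower (−0.30, adjusted p = 0.0256).

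Markers of cell types moved at day 0 as well, where 20.8% of all tested genes were higher and 19.4% lower in Hira-null. All 4 germ cell markers were higher in Hira-null, with summed levels of 148 and 151 FPKM, against 26.0 and 39.9 FPKM in WT. Of 7 pluripotency markers, 5 were higher and 1 lower, with sums of 4720.2 and 4735 FPKM in Hira-null, against 3238 and 3041 FPKM in WT. Of 12 cardiomyocyte markers, 2 were higher and 2 lower, with sums of 44.2 and 36.1 FPKM in Hira-null, against 36.5 and 34.6 FPKM in WT. Of 6 tested skeletal muscle markers 0 were higher and 3 lower, with sums of 19.8 and 18.7 FPKM in Hira-null, against 32.5 and 32.7 FPKM in WT. Both tested brown fat markers were higher, with sums of 6.13 and 8.42 FPKM in Hira-null, against 3.35 and 2.35 FPKM in WT. Of 4 tested visceral endoderm markers 3 were higher, with sums of 12.2 and 7.74 FPKM in Hira-null, against 0.824 and 0.348 FPKM in WT. The part of these shifts in the levels of Cox6b2, Cox7b2 and Cox7a1 was not tested.

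At day 15 the genotypes differed in fewer members. Of 81, 10 were higher and 9 lower in the libraries labelled Hira-null, below the background of 18.6% higher and 18.8% lower over all tested genes, and the median log2 fold change was 0.03, against 0.01 over all genes. Most of these calls depended on each WT library. Without WT day 15 replicate 1 there were 4 higher and 2 lower, without WT day 15 replicate 2 there were 3 higher and 3 lower, without Hira-null day 15 replicate 1 there were 15 lower, and without Hira-null day 15 replicate 2 there were 6 lower. Only Atp5e, Cox6b1 and Atp5c1 were called without each library in turn. Atp5e, the epsilon subunit of ATP synthase, had 188 and 202 FPKM in the libraries labelled Hira-null, against 149.7 and 129.7 FPKM in WT, and the groups did not overlap (log2 fold change 0.48, SE 0.09, adjusted p = 0.00271). Cox6b1 had 215 and 212 FPKM in the libraries labelled Hira-null, against 158 and 173 FPKM in WT (log2 fold change 0.37). Atp5c1, the gamma subunit that turns inside the ATP synthase, was chosen after its values were seen. It had 78.3 and 68.5 FPKM in the libraries labelled Hira-null, against 99.95 and 102 FPKM in WT (log2 fold change −0.46).

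The 2 largest called differences at day 15 were in low members. Cox4i2 had 0.309 and 0 FPKM in the libraries labelled Hira-null, from 2 and 0 fragments, against 2.04 and 1.64 FPKM in WT, from 14 and 14 fragments (log2 fold change −1.31, SE 0.23, adjusted p = 0.00288). Its adjusted p was 0.0559 without WT day 15 replicate 1. Cox7a1 had 6.13 and 3.44 FPKM in the libraries labelled Hira-null, against 7.54 and 11.7 FPKM in WT (log2 fold change −0.88, SE 0.23, adjusted p = 0.0169). That call was lost without Hira-null day 15 replicate 2 (adjusted p = 0.0900) or WT day 15 replicate 2 (adjusted p = 0.168). Both libraries labelled Hira-null held 0 fragments of Cox8c, against 0.669 and 0.359 FPKM in WT, from 3 and 2 fragments. The difference in Cox8c did not pass the test, and 3 fragments would be 0.707 FPKM or less in those Hira-null libraries. Ndufa1 of complex I had 74.9 and 59.7 FPKM in the libraries labelled Hira-null, against 43.9 and 42.8 FPKM in WT (log2 fold change 0.61, SE 0.12, adjusted p = 0.00522), and the call was lost without WT day 15 replicate 1 or 2 (adjusted p = 0.0580 and 0.0673). Ndufa2 was higher too (0.46, SE 0.09, adjusted p = 0.00455), and its call was lost without WT day 15 replicate 2 (adjusted p = 0.0645). Ndufb10 had 50.4 and 30.8 FPKM in the libraries labelled Hira-null, against 66.9 and 64.5 FPKM in WT (log2 fold change −0.72, SE 0.19, adjusted p = 0.0158), lost without WT day 15 replicate 1 or 2 (adjusted p = 0.1202 and 0.101).

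Markers of cell types differed between the genotypes at day 15. Over all tested genes, 18.6% were higher and 18.8% lower in the libraries labelled Hira-null. Of 12 cardiomyocyte markers, 1 was higher and 5 lower in the libraries labelled Hira-null, with sums of 196 and 193 FPKM, against 299 and 285 FPKM in WT. All 5 fibroblast markers were lower, with sums of 642 and 821 FPKM in the libraries labelled Hira-null, against 2189.6 and 1958 FPKM in WT, and 7 of 8 neural markers were higher, with sums of 639 and 618 FPKM, against 256 and 258 FPKM in WT. All 4 tested visceral endoderm markers were lower, with sums of 3.07 and 2.60 FPKM in the libraries labelled Hira-null, against 94.8 and 93.5 FPKM in WT. All 4 tested blood markers were lower as well, with sums of 3.46 and 4.23 FPKM, against 68.0 and 65.3 FPKM in WT. Of 6 tested endothelial markers 5 were lower, of 6 tested skeletal muscle markers 5 were lower, and of 2 tested brown fat markers 0 were called. The skeletal muscle sums were 10.3 and 11.5 FPKM in the libraries labelled Hira-null, against 23.6 and 23.8 FPKM in WT. No marker of these lists was at 0 in all libraries. The part of these shifts in the members' values at day 15 was not tested.

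Second forms of complex IV also led the fall between the days in Hira-null, while the largest falls in WT were in Cox8c, Atp5g1 and Cox5a. In Hira-null, Cox7a1 had 6.13 and 3.44 FPKM at day 15, against 41.8 and 38.9 FPKM at day 0 (log2 fold change −2.87, SE 0.23, adjusted p = 4.63e-06). Cox4i2 followed with 0.309 and 0 FPKM at day 15, against 4.41 and 7.04 FPKM at day 0 (−2.53, SE 0.23, adjusted p = 1.10e-05), and Cox7b2 with 0.413 and 0 FPKM at day 15, against 6.97 and 2.93 FPKM at day 0 (−2.24, SE 0.33, adjusted p = 2.61e-04). Cox6b2 had 23.6 and 20.1 FPKM at day 15, against 104 and 98.9 FPKM at day 0 (−2.16). Cox8c was at least 4.79-fold lower at day 15 than its mean of 3.39 FPKM at day 0, taking the floor of 3 fragments per library. In WT, Cox6b2 had 23.7 and 27.5 FPKM at day 15, against 27.3 and 24.0 FPKM at day 0, and the groups overlapped. They overlapped in Cox7b2 too, with 0.391 and 0.786 FPKM in WT at day 15, against 0.5004 and 0.872 FPKM in WT at day 0. Cox4i2 and Cox7a1 were called lower at day 15 in WT too. Cox4i2 had 2.04 and 1.64 FPKM in WT at day 15, against 5.42 and 4.40 FPKM at day 0. Its call was lost with 0.1 added to FPKM instead of 1 (adjusted p = 0.0655). Cox7a1 had 7.54 and 11.7 FPKM in WT at day 15, against 17.4 and 17.5 FPKM at day 0, a call lost without WT day 15 replicate 1. Cox6a2 had 2.58 and 1.81 FPKM in WT at day 15, from 16 and 14 fragments, against 1.03 and 0 FPKM in WT at day 0, from 5 and 0 fragments (log2 fold change 1.15, SE 0.31, adjusted p = 0.00903), and the call was lost without WT day 15 replicate 1 (adjusted p = 0.103). Cox8c fell in WT (−1.46, SE 0.24, adjusted p = 5.87e-04), and Atp5g1 did with 48.8 and 39.4 FPKM at day 15, against 119 and 122 FPKM at day 0 (−1.44, SE 0.10, adjusted p = 2.92e-06).

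The change of the genotype effect between the days was tested directly, as the effect at day 15 minus that at day 0. It was higher in 7 members and lower in 18, against 17.5% higher and 17.7% lower over all tested genes, with a median of −0.13 over the members and 0.02 over all genes. The members' median was −0.05 without WT day 0 replicate 2 or without Hira-null day 15 replicate 2. Of the 18, 8 belong to complex IV, and 0 members of that complex were among the 7. The largest were Cox6b2 (−2.16, SE 0.16, adjusted p = 8.68e-05), Cox7b2 (−2.15, SE 0.47, adjusted p = 0.00874) and Cox7a1 (−2.05, SE 0.32, adjusted p = 0.00212), and in the other direction Ndufa5 (0.88, SE 0.14, adjusted p = 0.00247), Ndufa1 (0.66, SE 0.17, adjusted p = 0.0190) and Uqcrq (0.57, SE 0.10, adjusted p = 0.00348). Cox6b2, Cox7a1, Ndufa5 and Uqcrq were called without each library in turn, Cox7b2 was not without WT day 15 replicate 2 (adjusted p = 0.0612), and Ndufa1 was not without any of 4 libraries (adjusted p = 0.0519 to 0.0832). In all, 6 of the 18 and 2 of the 7 were called without each library in turn. Without 1 library the number higher was between 3 and 7 and the number lower between 7 and 21, with 7 lower without WT day 15 replicate 1, 10 without Hira-null day 0 replicate 2 and 12 without WT day 15 replicate 2. The number higher was 3 without Hira-null day 0 replicate 1 or 2, WT day 0 replicate 1 or WT day 15 replicate 2, and 4 without WT day 15 replicate 1.

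**Figure D4:**
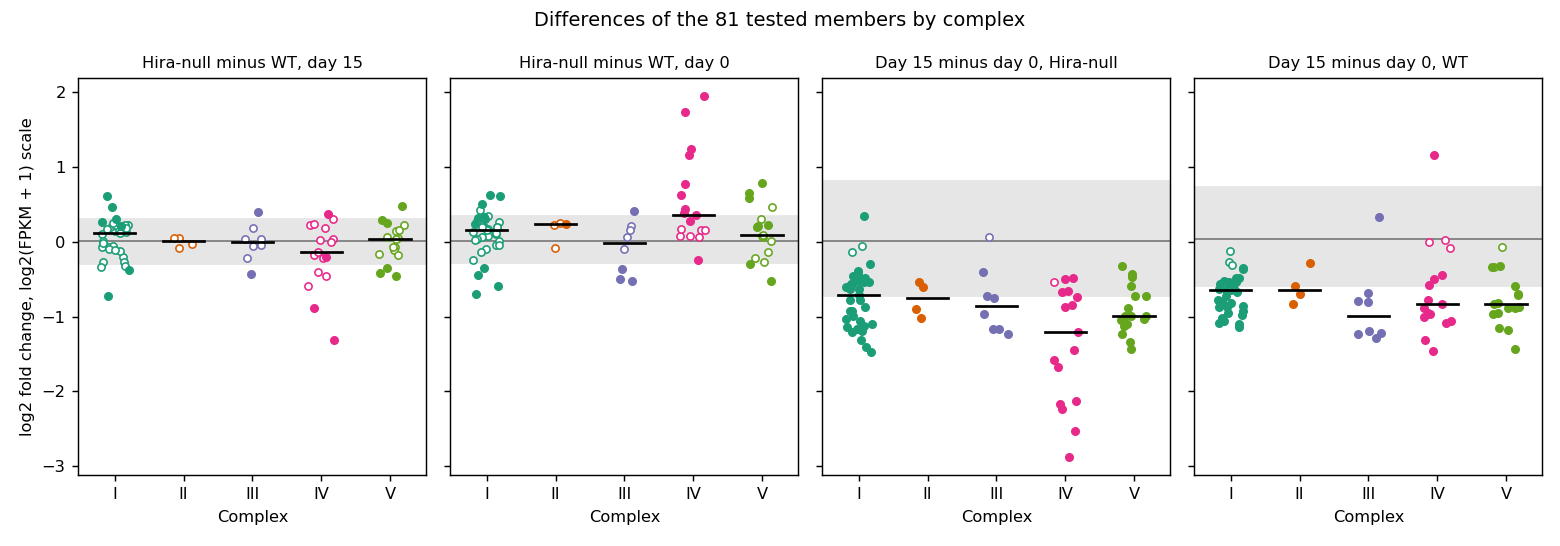
Log2 fold change (vertical axis, log2(FPKM + 1) scale) of the 81 tested members by complex in 4 comparisons, with filled points for members that passed the test, open points for those that did not and a black line at each complex median; the grey line and band give the median and the quartiles of all tested genes. Day 15 minus day 0 puts the complex medians between −1.21 and −0.72 in Hira-null and between −0.999 and −0.64 in WT, while for Hira-null minus WT at day 0 the median of complex IV is 0.35.

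Genes around the chain were also compared between the days, where 36.4% of all tested genes were lower in Hira-null and 33.4% in WT. The shares of all tested genes that were higher were 37.5% in Hira-null and 36.1% in WT. Of 19 glycolysis genes, 17 fell and 1 rose in Hira-null (median −2.54), and 17 fell and 2 rose in WT (median −1.73). Of 17 citric acid cycle genes, 14 fell and 2 rose in Hira-null (median −0.66), and 14 fell and 1 rose in WT (median −0.72). Import and cristae genes fell in 14 of 21 in Hira-null (median −0.65) and 18 of 21 in WT (median −0.67), and none of these 21 rose. Of 18 assembly factors of complex IV, 8 fell and 2 rose in Hira-null, and 12 fell and 0 rose in WT. Assembly factors of complex I fell in 9 of 13 in Hira-null and 9 of 13 in WT, those of complex III in 2 of 6 in Hira-null and 3 of 6 in WT, and those of complex V in 1 of 3 in Hira-null and 2 of 3 in WT. Of 16 factors of mitochondrial DNA and biogenesis, 7 fell in Hira-null and 9 in WT. Cyct, the testis form of cytochrome c, fell in both genotypes and was chosen after its values were seen. It had 1.54 and 1.28 FPKM in the libraries labelled Hira-null at day 15, against 18.4 and 21.8 FPKM in Hira-null at day 0, and 2.74 and 1.95 FPKM in WT at day 15, against 16.5 and 19.2 FPKM in WT at day 0. In the same comparisons the cardiomyocyte markers rose in 10 of 12 in Hira-null and 12 of 12 in WT, and all 7 pluripotency markers fell in both.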

How the data were processed

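Messenger RNA of 8 libraries was measured by paired-end sequencing. The FPKM values were deposited by the authors, whose processing notes name Bowtie 0.12.2 and DESeq2 1.6.3; whether strand was used in counting is not stated. Files of the authors' own comparisons (fold changes, p-values) were not used, and 0 columns were left unmapped. FPKM was tested as log2(FPKM + 1) with limma 3.58.1 in R 4.3.3, with 4 group means, 1 weight per day, a trended variance and Benjamini-Hochberg adjustment, after requiring FPKM 1 in 2 libraries. The fit was tested on simulated data. Near-identical copies were found with blastn 2.17.0, and other values were computed in Python 3.11.15. Depth was 6914225 to 11106636 fragments per library. P-values measure the spread between the 2 samples of a group, pooled over the 4 groups and moderated by genes of like level. The members and lists were chosen with earlier results of these data known. Named genes were tissue forms, core subunits, the highest and lowest of each complex, 3 names that are not subunits, and up to 3 called members per direction and comparison with the largest change and groups that did not overlap. One gene that the rule names is not reported here. Alternatives changed the pseudocount, filter, scaling, weights, replicate block, fold threshold, samples fitted, and each library in turn; total fragment scaling was chosen after seeing the data.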

Additional observations from a re-analysis of the deposited data

Results flagged for a closer look

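In 25 members the difference between Hira-null and WT was not the same at day 15 as at day 0, by the test of the difference itself (limma, adjusted p of 0.05 or less). In 7 of them the log2 difference, day 15 minus day 0, was above 0: Ndufa5 (0.88), Ndufa1 (0.66), Uqcrq (0.57), Ndufs1 (0.50), Ndufa2 (0.42), Uqcrfs1 (0.40) and Atp5j (0.39). In 18 it was below 0. Those of complex IV were Cox6b2 (−2.16), Cox7b2 (−2.15), Cox7a1 (−2.05), Cox6a2 (−1.69), Cox4i2 (−1.47), Cox7a2l (−0.77), Cox7c (−0.59) and Cox8a (−0.57). Those of complex I were Ndufa6 (−0.999), Ndufv3 (−0.55), Ndufs7 (−0.53), Ndufa7 (−0.39) and Ndufv1 (−0.36). Those named for complex V were Atp5sl (−1.06), Atp5c1 (−0.53), Atp5g2 (−0.51), Atp5d (−0.39) and Atp5b (−0.28).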

How the results depend on the processing

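With a fold of 2 or more also required, Hira-null over WT at day 0 had 4 members higher and 0 lower, at day 15 it had 0 higher and 1 lower, day 15 over day 0 had 1 higher and 17 lower in WT and 0 higher and 31 lower in Hira-null, and the genotype effect at day 15 minus day 0 had 0 higher and 6 lower. The members' median for day 15 minus day 0 moved in WT to −0.68 under median-ratio scaling and −0.65 under total fragment scaling, and in Hira-null to −0.80 under median-ratio scaling. Median-ratio scaling set the median of all tested genes in WT at 0.12 and total fragment scaling at 0.14, against 0.03 as reported. Leaving out 1 library at a time gave, at day 0, 12 to 29 higher and 5 to 10 lower, at day 15, 3 to 14 higher and 2 to 15 lower, between the days, 0 to 2 higher and 64 to 72 lower in WT and 0 to 1 higher and 73 to 77 lower in Hira-null, and for the difference of the genotype effects, 3 to 7 higher and 7 to 21 lower. The medians then ran from −0.95 to −0.78 for day 15 minus day 0 in Hira-null and from −0.160 to −0.0522 for the difference of the genotype effects. Over 143 gene comparisons, the other alternatives gave 910 values, of which 28 lost and 5 gained a call, and leaving out libraries gave 1144, of which 131 lost and 11 gained one, with 0 reversed. Of 72 recomputed ratios of summed levels, 22 moved by more than the spread between the libraries of their groups. For complex IV at day 0, Hira-null over WT went from 1.18 to 1.29 without its highest member. Of the 72, 1 changed side of 1, that of complex III at day 15 without its highest member (1.046).

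No pairing by replicate number was seen, as deviations of same-numbered libraries correlated between −0.10 and 0.05. Such values cannot show whether same-numbered libraries came from the same experiment. With the replicate number as a block, the day 0 counts were 26 higher and 10 lower and the day 15 counts 7 higher and 8 lower.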
